A study of Sus scrofa with 14 samples.

Results

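The platelet-derived growth factor (PDGF) family was followed in the porcine mammary gland through its 4 ligand genes, PDGFA, PDGFB, PDGFC and PDGFD, and its 2 receptor genes, PDGFRA and PDGFRB. These 6 genes were taken by symbol from the 30071 genes of the count tables, and all 6 were found. They are listed as ENSSSCG00000007541 (PDGFA), ENSSSCG00000033327 (PDGFB), ENSSSCG00000024960 (PDGFC), ENSSSCG00000014994 (PDGFD), ENSSSCG00000008841 (PDGFRA) and ENSSSCG00000022741 (PDGFRB). Mammary glands of multiparous sows in their second breeding cycle were sampled at 5 stages, with 2 sows at each stage, and single nuclei were sequenced. The stages were day 90 of gestation (G90), day 0 of lactation (L0), day 20 of lactation (L20), and 2 and 7 days after natural involution (PI2 and PI7). A spatial section was sequenced from 1 gland at G90 and 1 at PI2, and the cells of 1 milk sample at L0 and 1 at L20, all without any treatment or genetic change. The labels of the milk libraries give the mammary gland as the tissue, and that they hold milk cells was taken from the study's methods. With 2 sows at a stage, p-values between stages rested on a very small number of animals.

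PDGF ligands are secreted dimers that bind receptor tyrosine kinases at the cell surface, and the bound receptors pair, phosphorylate each other and recruit signalling proteins. PDGFA and PDGFB are released in active form, whereas PDGFC and PDGFD carry an additional domain that has to be cut off by a protease before they can bind. PDGFRA is best known from fibroblasts and other mesenchymal cells, and PDGFRB from the mural cells (pericytes and smooth muscle) that wrap small vessels, which endothelial PDGFB attracts.

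The 250 bases before the start of both receptor genes are shown because the results below turn on the different cell classes in which the 2 receptors were found. They were read from the RefSeq annotation of the Sscrofa11.1 genome, 5′ to 3′ on the strand of the gene, and capitals mark the first of the searched motifs. The motifs were the CCAAT box (CCAAT), the GC box (GGGCGG) and the TATA box (TATAAA), each on both strands. PDGFRA lies on the plus strand at chr8:40966568-41021440, with this stretch at chr8:40966318-40966567, and PDGFRB lies on the minus strand at chr2:151155753-151192818, with this stretch at chr2:151192819-151193068.
PDGFRA: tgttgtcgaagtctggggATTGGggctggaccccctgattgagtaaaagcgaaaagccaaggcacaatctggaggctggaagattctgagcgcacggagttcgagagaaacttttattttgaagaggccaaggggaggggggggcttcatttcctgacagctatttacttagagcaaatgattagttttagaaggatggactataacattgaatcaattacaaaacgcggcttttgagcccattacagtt
PDGFRB: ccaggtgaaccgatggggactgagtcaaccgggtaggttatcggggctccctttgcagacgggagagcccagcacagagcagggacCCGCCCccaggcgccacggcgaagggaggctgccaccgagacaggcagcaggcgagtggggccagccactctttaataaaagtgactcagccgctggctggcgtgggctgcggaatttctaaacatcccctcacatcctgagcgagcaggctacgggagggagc
The PDGFRA stretch held 45.6% G and C, 7 CpG dinucleotides and 1 CCAAT motif, written on the other strand as ATTGG. The PDGFRB stretch held 64% G and C, 15 CpG dinucleotides and 1 GC box, written on the other strand as CCGCCC. Over 20664 pig promoters of the same length the medians were 57.2% G and C and 11 CpG dinucleotides, and 32.0% held a CCAAT motif, 44.4% a GC box and 10.4% a TATA box. A match to these letters is a description of the sequence and no evidence of binding. The stretch before PDGFA held 71.6% G and C with 1 GC box, the one before PDGFC 76.8% with 1 CCAAT motif and 3 GC boxes, and the one before PDGFD 55.6% with none of the 3 motifs. No sequence is given for PDGFB.

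The gland libraries held 126833 nuclei with 18700704 to 53161349 unique molecular identifiers (UMIs, counted transcripts) per gland. Levels are given as CPM (UMIs of a gene per 1000000 UMIs) of the gland or of a class of its nuclei. They are not set per transcript length, so a level is compared between classes and stages and never between genes. Nuclei were put in a class by the markers they held. At least 2 distinct markers of a list of 10 had to be detected, and more of that list than of any other, with none of the PDGF genes in any list. A class is thus named after its markers only (fibroblast nuclei are fibroblast-like nuclei), and 25542 nuclei stayed in no class. The 10 classes compared held 66869 luminal epithelial, 11803 fibroblast, 5970 blood endothelial, 4694 macrophage, 4061 T or NK, 3383 lymphatic endothelial, 1875 myoepithelial, 762 B or plasma, 762 adipocyte and 589 mural nuclei. Another 440 Schwann and 83 neutrophil nuclei were gated but not compared. The second L20 gland stood apart, with 8.94% luminal and 31.3% fibroblast nuclei, against up to 81.9% luminal nuclei in another gland. It also gave 559 of the 762 adipocyte nuclei, and calls of the 6 genes that changed without it are given both ways. Pairs of gland libraries shared at most 205 barcodes, and the milk libraries shared 284.

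PDGFRA stood out in a single class. Its level in fibroblast nuclei was 461 ± 244 CPM (SD, n = 10 glands). The values were 650 and 439 CPM at G90, 348 and 361 CPM at L0, 607 and 238 CPM at L20, 347 and 1039 CPM at PI2, and 312 and 274 CPM at PI7. Every gland had a higher fibroblast level than any of the other 9 compared classes in any gland (at least 10 nuclei). Among those classes the highest value was 84.6 CPM, in the adipocyte nuclei of the first L20 gland, from 5 UMIs. In the other 9 classes the mean PDGFRA level was between 10.4 CPM (mural) and 22.8 CPM (B or plasma), and the ranges of all neighbours in this order overlapped. Fibroblast nuclei gave 66.3% of all PDGFRA UMIs and 8.94% of all UMIs, or 60.1% and 5.28% without the second L20 gland.

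PDGFRB was shared between mural and fibroblast nuclei. Its level in mural nuclei was 555 ± 213 CPM (SD, n = 10), with 471 and 249 CPM at G90, 545 and 471 CPM at L0, 822 and 282 CPM at L20, 562 and 636 CPM at PI2, and 578 and 936 CPM at PI7. In fibroblast nuclei it was 323 ± 159 CPM (SD, n = 10), with 200 and 141 CPM at G90, 227 and 421 CPM at L0, 343 and 113 CPM at L20, 553 and 398 CPM at PI2, and 280 and 558 CPM at PI7. The PDGFRB ranges of these 2 classes overlapped, but neither overlapped with the other 8 classes (glands with at least 10 nuclei of the class), in which the highest PDGFRB value was 92.4 CPM and the mean was at most 30.8 CPM (adipocyte). Mural nuclei gave 5.61% of the PDGFRB UMIs from 0.340% of all UMIs, and fibroblast nuclei 58.0%. Their number was small, at 17 to 156 mural nuclei per gland, so that the mural level rested on 599 PDGFRB UMIs.

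**Figure D1:**
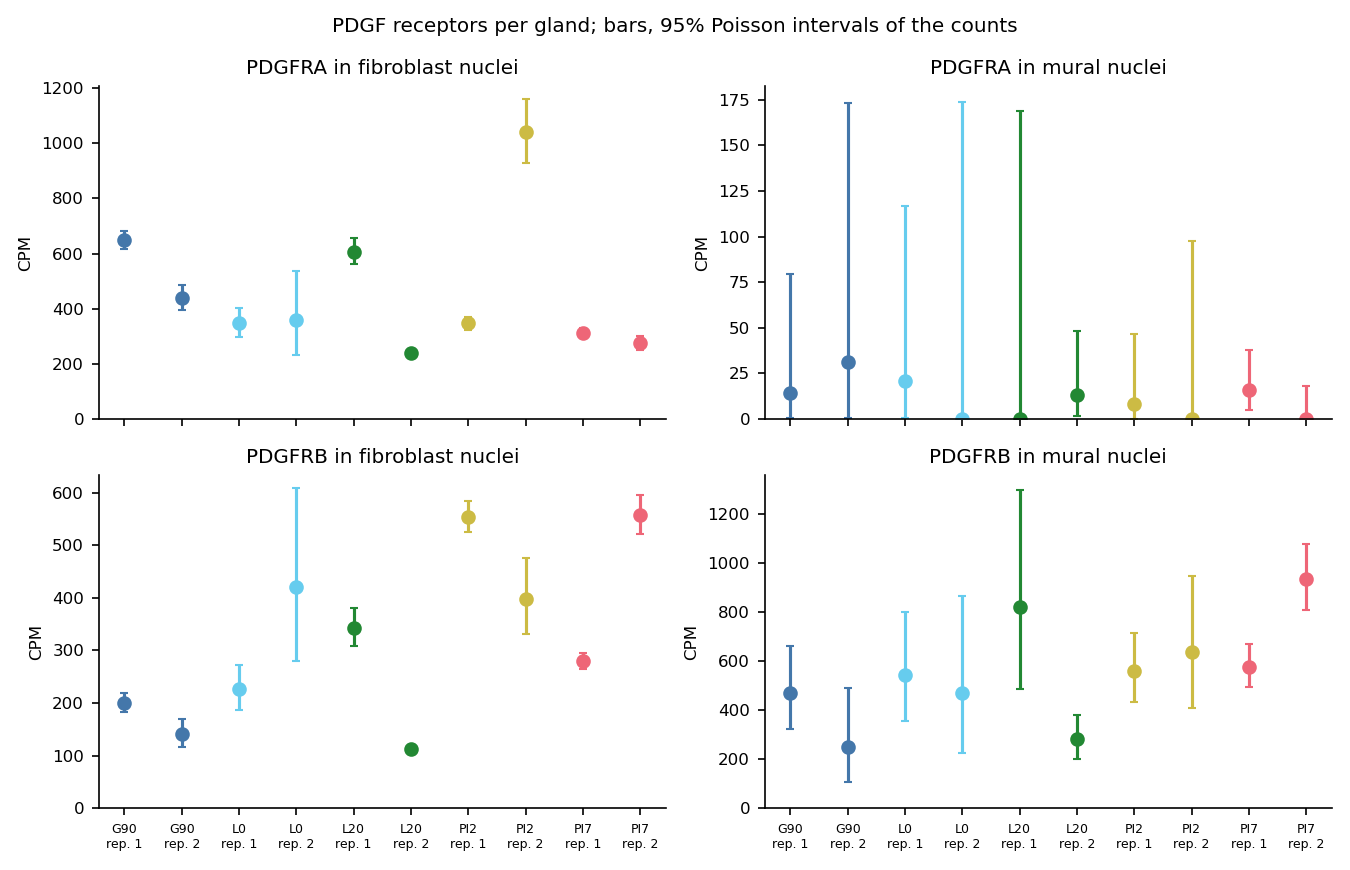
Levels of PDGFRA (upper row) and PDGFRB (lower row) in CPM in fibroblast (left) and mural (right) nuclei of each of the 10 glands, with the stage and replicate on the horizontal axis and 95% Poisson intervals of the counts as bars. PDGFRA was at 238 to 1039 CPM in fibroblast and at most at 31.1 CPM in mural nuclei, whereas PDGFRB was above 100 CPM in both classes in every gland.

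Which class held which receptor was tested with edgeR's quasi-likelihood test on the UMIs summed per sow and class, each class against the mean of the other 9, with the sow as a block and p-values adjusted over 11846 genes (Benjamini-Hochberg). A gene was called at an adjusted p under 0.05 and an absolute log2 fold change over 1. In the fibroblast comparison, where 10.5% of all genes were called, 5 of the 6 genes were. PDGFRA was 29.7-fold higher in fibroblast nuclei (log2 fold change 4.89 ± 0.16 SE, edgeR adjusted p = 7.47e-50) and PDGFRB 14.8-fold higher (log2 fold change 3.89 ± 0.15 SE, edgeR adjusted p = 1.89e-43). Without the second L20 gland these log2 fold changes were 5.05 and 3.97.

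In the mural comparison, where 10.6% of all genes were called, 3 of the 6 genes were. PDGFRB was 20.6-fold higher in mural nuclei than in the mean of the other classes (log2 fold change 4.36 ± 0.18 SE, edgeR adjusted p = 5.29e-41). PDGFRA was lower there (log2 fold change -1.45 ± 0.50 SE, edgeR adjusted p = 0.0294), but this rested on 11 UMIs with 4 glands at 0 and was lost in 13 of 17 alternative analyses, including that without the second L20 gland (adjusted p = 0.0774). The log2 fold change stayed between -1.70 and -1.19 in these alternatives. The mural markers summed to 2082 to 4531 CPM in mural and 112 to 599 CPM in fibroblast nuclei. The fibroblast markers summed to 283 to 1237 CPM in mural nuclei, with none of the 9 measured markers at 0, and to 7299 to 17238 CPM in fibroblast nuclei. The part of RNA from neighbouring nuclei in the low PDGFRA level of mural nuclei was not tested.

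Mural and fibroblast nuclei were then compared directly, and 5 of the 6 genes were called, against 12.6% of all genes. PDGFRA was 52.3-fold lower in mural than in fibroblast nuclei (log2 fold change -5.71 ± 0.42 SE, edgeR adjusted p = 1.47e-21), and PDGFD was 11.6-fold lower (log2 fold change -3.54 ± 0.38 SE, edgeR adjusted p = 3.00e-13). PDGFA, PDGFB and PDGFC were higher in mural nuclei, with log2 fold changes of 2.93 ± 0.37 SE, 1.64 ± 0.51 SE and 1.56 ± 0.26 SE. The PDGFB difference was lost in 3 of 17 alternatives. For PDGFRB the log2 fold change was 0.43 ± 0.23 SE (edgeR adjusted p = 0.216), which settled neither a difference nor its absence, and it turned to -0.16 when nuclei with at least 2 markers of a second class were left out.

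Within fibroblast nuclei the 2 receptors were set side by side in each gland. The PDGFRB level was higher in fibroblast nuclei with a PDGFRA UMI than in those without in 8 of 10 glands. In the second L20 gland, which had most fibroblast nuclei, it was 129 CPM in 1521 nuclei with and 101 CPM in the nuclei without a PDGFRA UMI. In the second PI2 gland it was the other way, at 377 CPM with and 458 CPM without. Nuclei with a PDGFRA UMI were 1.30 to 2.31 times deeper by median UMIs, and the part of depth in this difference was not tested.

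**Figure D2:**
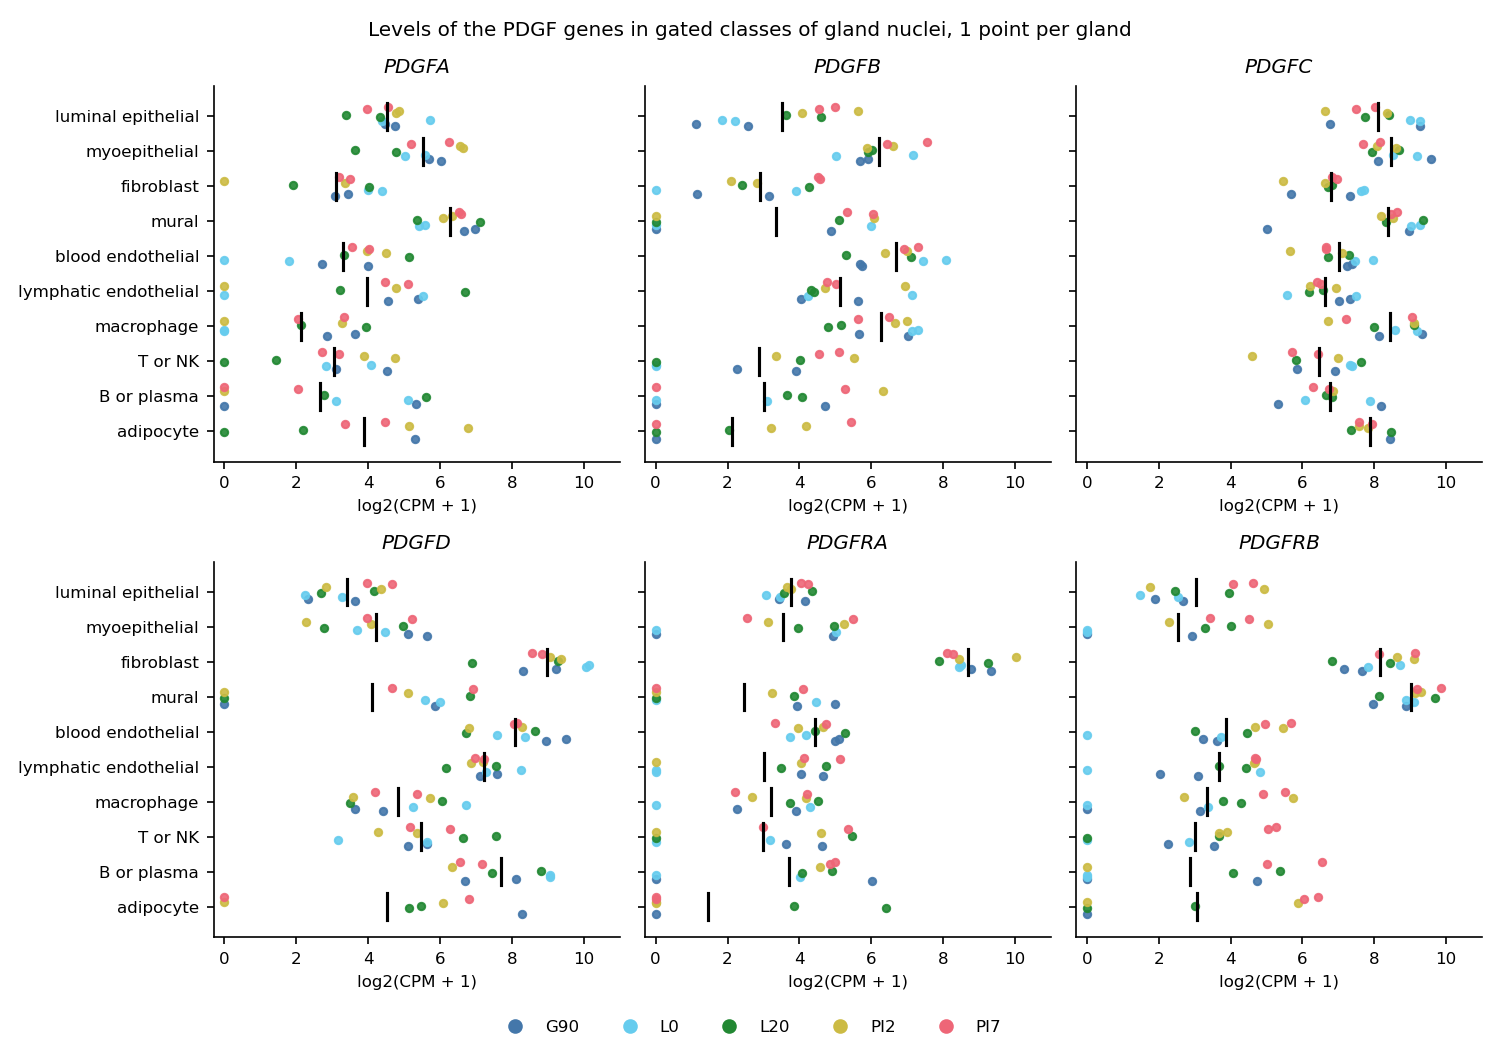
Levels of the 6 PDGF genes as log2(CPM + 1) on the horizontal axis in the 10 classes of gland nuclei, with 1 point per gland coloured by stage and a black line at the mean of the log2 values; a gland is shown for a class with at least 10 nuclei. The fibroblast points of PDGFRA stand clear of every other class, as do the fibroblast and mural points of PDGFRB together.

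PDGFD, the ligand that binds mainly PDGFRB, had its highest mean over the 10 glands in the same fibroblast nuclei. Its level there was 590 ± 319 CPM (SD, n = 10), with 314 and 604 CPM at G90, 1077 and 1142 CPM at L0, 117 and 628 CPM at L20, 654 and 530 CPM at PI2, and 455 and 377 CPM at PI7. Both L0 glands lay above all others, and the first L20 gland lay lowest. At G90 the PDGFD mean of blood endothelial nuclei was higher, at 609 CPM against 459 CPM in fibroblast nuclei. Over all glands blood endothelial nuclei followed with 320 ± 186 CPM (SD, n = 10), B or plasma nuclei with 265 ± 191 CPM (SD, n = 9) and lymphatic endothelial nuclei with 158 ± 61.3 CPM (SD, n = 10), while luminal nuclei had 11.4 ± 7.07 CPM (SD, n = 10). The ranges of neighbours in the whole order overlapped. Of the 14549 PDGFD UMIs of fibroblast nuclei, 8154 came from the second L20 gland.

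PDGFD was 9.36-fold higher in fibroblast nuclei than in the mean of the other classes (log2 fold change 3.23 ± 0.18 SE, edgeR adjusted p = 5.88e-31), and 3.26 on the log2 scale without the second L20 gland. In the blood endothelial comparison, where 10.0% of all genes were called, 2 of the 6 genes were, and PDGFD was 5.12-fold higher (log2 fold change 2.36 ± 0.19 SE, edgeR adjusted p = 7.13e-20). PDGFD was the single gene of the 6 called in B or plasma nuclei (log2 fold change 1.56 ± 0.27 SE, edgeR adjusted p = 3.99e-06), where 12.6% of all genes were called. The fibroblast markers summed to 33.5 to 522 CPM in the B or plasma nuclei. They summed to 284 to 1629 CPM in blood endothelial and 256 to 757 CPM in lymphatic endothelial nuclei. The part of fibroblast RNA in the PDGFD levels of these 3 classes was not tested. Blood endothelial markers summed to 1493 to 2797 CPM in lymphatic endothelial nuclei, against 4208 to 6885 CPM in blood endothelial nuclei. The part of blood endothelial RNA in the lymphatic PDGFD level was not tested either. In lymphatic endothelial nuclei, where 14.1% of all genes were called, PDGFD was 2.06-fold higher and PDGFRB 2.05-fold lower, and these calls were lost in 2 and 4 of 17 alternatives. Without the second PI7 gland neither was called, with log2 fold changes of 0.946 (PDGFD) and -0.995 (PDGFRB), just inside the limit of 1. Nor was either called when nuclei with at least 2 markers of a second class were left out. In the latter the log2 fold change of PDGFRB was still -1.03 (adjusted p = 0.062) and that of PDGFD fell from 1.04 to 0.62.

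PDGFB, the ligand that endothelial cells are known to offer to mural cells, had its highest mean over the 10 glands in blood endothelial nuclei. Its level there was 120 ± 69.6 CPM (SD, n = 10), with 52.7 and 50.1 CPM at G90, 173 and 268 CPM at L0, 137 and 38.6 CPM at L20, 83.3 and 127 CPM at PI2, and 120 and 156 CPM at PI7. Both L0 glands were the highest, and the second L20 gland was the lowest. The order differed between stages, with stage means of PDGFB of 89.6 CPM in macrophages, 54.5 CPM in myoepithelial and 51.4 CPM in blood endothelial nuclei at G90, and of 113 CPM in macrophages against 105 CPM at PI2. Over all glands macrophages followed with 89.9 ± 47.4 CPM, myoepithelial nuclei with 83.4 ± 47.7 CPM and lymphatic endothelial nuclei with 46.7 ± 45.6 CPM (SD, n = 10 each), and the ranges of neighbours overlapped. The lowest mean was that of fibroblast nuclei, at 9.99 ± 8.61 CPM (SD, n = 10).

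Against the mean of the other classes, PDGFB was 4.68-fold higher in blood endothelial nuclei (log2 fold change 2.23 ± 0.24 SE, edgeR adjusted p = 7.81e-14). In the macrophage comparison, where 19.0% of all genes were called, 4 of the 6 genes were, and PDGFB was 3.23-fold higher (log2 fold change 1.69 ± 0.27 SE, edgeR adjusted p = 7.03e-08). The myoepithelial comparison called 5 of the 6 genes and 13.6% of all genes, and PDGFB was 2.97-fold higher there (log2 fold change 1.57 ± 0.28 SE, edgeR adjusted p = 1.82e-06). PDGFB was lower in fibroblast nuclei (log2 fold change -1.48 ± 0.32 SE, edgeR adjusted p = 8.10e-05). Adipocyte nuclei were compared in 7 glands, with 12.6% of all genes called. PDGFB was the single gene of the 6 called in them (log2 fold change -2.31 ± 0.68 SE, edgeR adjusted p = 0.00863). That call rested on 11 UMIs and was lost without the second L20 gland (adjusted p = 0.0956), where the log2 fold change was still -2.28.

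PDGFC, a ligand for PDGFRA that needs cleavage, was spread over many classes. Its level was 404 ± 180 CPM in mural, 401 ± 194 CPM in macrophage, 379 ± 175 CPM in myoepithelial and 327 ± 196 CPM in luminal nuclei (SD, n = 10 each), and 104 ± 58.3 CPM in T or NK nuclei, the lowest. All neighbours overlapped in range. The luminal class, the largest by number of nuclei, gave 74.2% of all PDGFC UMIs, against 64.5% of all UMIs. Without the second L20 gland these shares were 81.1% and 71.9%.

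PDGFC was 2.20-fold higher in macrophages (log2 fold change 1.14 ± 0.17 SE, edgeR adjusted p = 6.94e-09) and 2.02-fold higher in myoepithelial nuclei (log2 fold change 1.01 ± 0.17 SE, edgeR adjusted p = 8.58e-07) than in the mean of the other classes. The macrophage call held in 17 of 17 alternatives, and the myoepithelial one was lost in 6 of them. The log2 fold changes of 0.93 in luminal and 0.96 in mural nuclei lay under the limit of 1 and were not called, but the mural one was called in 10 of 17 alternatives and the luminal one in 2. In T or NK nuclei, where 15.9% of all genes were called, PDGFC was lower (log2 fold change -1.31 ± 0.22 SE, edgeR adjusted p = 3.93e-07), as was PDGFRB (log2 fold change -1.17 ± 0.27 SE, edgeR adjusted p = 0.000171). That PDGFRB call was lost without the first PI2 gland (log2 fold change -0.93).

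PDGFA, the ligand specific to PDGFRA, had its highest means over the 10 glands in both contractile classes. Its level was 82.3 ± 33.6 CPM in mural nuclei (SD, n = 10), from 82 UMIs, with 99.8 and 124 CPM at G90, 41.9 and 47.1 CPM at L0, 137 and 40.3 CPM at L20, 67.1 and 79.5 CPM at PI2, and 94.1 and 92.2 CPM at PI7. Myoepithelial nuclei, the contractile cells around the acini, had 53.3 ± 28.9 CPM (SD, n = 10). Adipocyte nuclei had 30.8 ± 37.2 CPM (SD, n = 7), and lymphatic endothelial and luminal nuclei 30.0 ± 29.7 and 23.8 ± 11.4 CPM (SD, n = 10 each). At L20 the myoepithelial PDGFA mean was 18.9 CPM, below 55.2 CPM in lymphatic and 21.6 CPM in blood endothelial nuclei. In fibroblast nuclei, which held PDGFRA, PDGFA was at 9.83 ± 5.95 CPM, and in macrophages at 5.63 ± 5.15 CPM (SD, n = 10 each). Neighbours in the order overlapped throughout.

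PDGFA was 4.39-fold higher in mural nuclei (log2 fold change 2.13 ± 0.30 SE, edgeR adjusted p = 6.51e-09) and 3.02-fold higher in myoepithelial nuclei (log2 fold change 1.59 ± 0.24 SE, edgeR adjusted p = 3.29e-08) than in the mean of the other classes. It was lower in macrophages (log2 fold change -1.56 ± 0.33 SE, edgeR adjusted p = 3.49e-05) and in fibroblast nuclei (log2 fold change -1.12 ± 0.27 SE, edgeR adjusted p = 0.000422). The fibroblast call was lost without the first PI2 gland, where the log2 fold change was -0.96. In the luminal comparison, where 23.3% of all genes were called, 3 of the 6 genes were, all of them lower. These were PDGFD (log2 fold change -2.86 ± 0.26 SE), PDGFRB (-1.79 ± 0.19 SE) and PDGFB (-1.001 ± 0.26 SE), and the last was lost in 3 of 17 alternatives. Myoepithelial nuclei likewise had less PDGFD (log2 fold change -1.82 ± 0.31 SE) and PDGFRB (-1.68 ± 0.29 SE), and macrophages less PDGFD (-1.45 ± 0.29 SE).

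**Figure D3:**
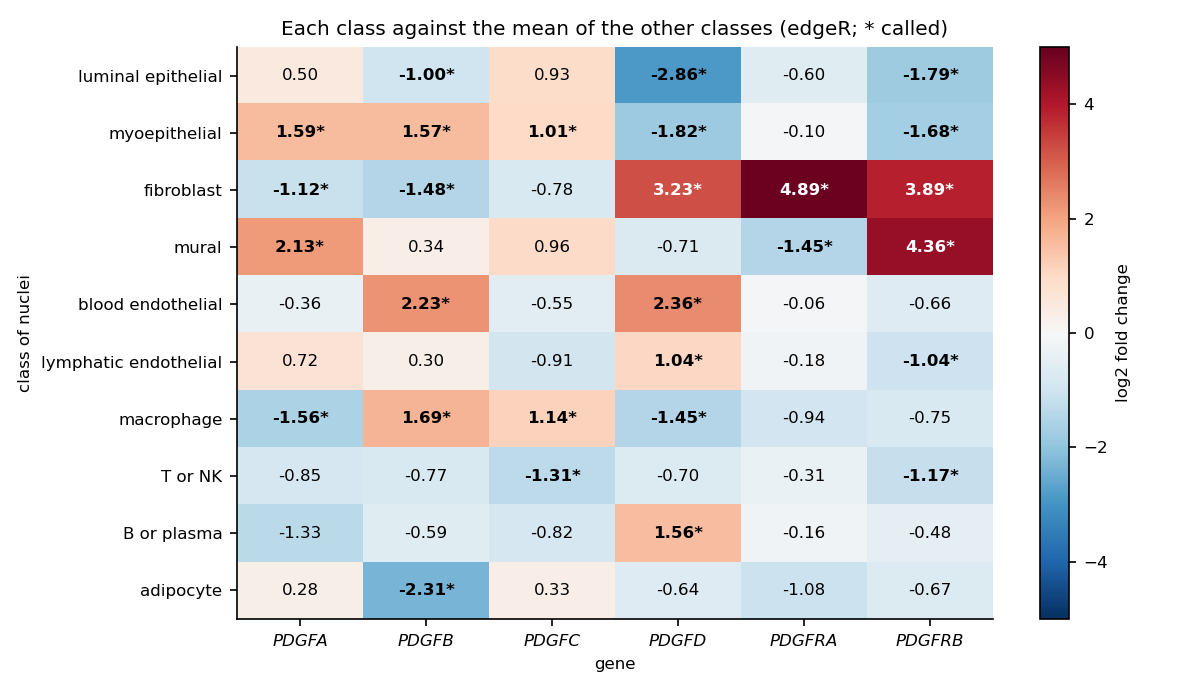
Log2 fold changes of the 6 PDGF genes (columns) in each class of gland nuclei (rows) against the mean of the other 9 classes, coloured from blue (lower) to red (higher), with calls at an adjusted p under 0.05 and an absolute log2 fold change over 1 in bold with a star. The receptor columns hold the largest values, 4.89 for PDGFRA and 3.89 for PDGFRB in fibroblast and 4.36 for PDGFRB in mural nuclei, while no class had a called increase of PDGFRA besides fibroblasts.

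Over the whole gland, the UMIs of all nuclei were summed per sow to ask whether the family changed between adjacent stages. PDGFB was at 13.9 and 2.33 CPM at G90, 7.63 and 6.10 CPM at L0, 28.2 and 16.0 CPM at L20, 23.1 and 49.1 CPM at PI2, and 40.4 and 46.2 CPM at PI7. Its 4 glands of G90 and L0 all lay below the 6 later ones. This split was read from the values and not tested, and the share of all genes that split alike was not counted. PDGFRB was at 23.2 and 5.21 CPM at G90, 11.1 and 4.18 CPM at L0, 34.1 and 46.8 CPM at L20, 91.6 and 11.2 CPM at PI2, and 61.5 and 85.8 CPM at PI7. Here the L20 and PI7 glands lay above those of G90 and L0, and the PI2 glands lay apart from each other. The share of fibroblast nuclei, which gave most of the PDGFRB UMIs, differed along with it. This share was 9.31% in the first G90 gland and 1.72% in the second, 2.45% and 0.532% in the L0 pair, 6.20% and 31.3% in the L20 pair, 12.1% and 1.58% in the PI2 pair, and 12.3% and 8.79% in the PI7 pair. At each stage the gland with the higher fibroblast share also had the higher PDGFRB level, except at PI7, and its part in these levels was not tested.

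For PDGFRA and the remaining ligands the stages were less separated. The PDGFRA level was higher in the gland with the higher fibroblast share at all 5 stages. PDGFRA was at 67.3 and 17.5 CPM at G90, 17.2 and 9.17 CPM at L0, 43.6 and 95.6 CPM at L20, 48.6 and 30.7 CPM at PI2, and 59.5 and 35.4 CPM at PI7. The L0 glands were the lowest, just under the second G90 gland. PDGFD reached 282 CPM in the second L20 gland, where the fibroblast share was 31.3%, and was between 11.8 and 126 CPM in the other 9 glands. PDGFC was at 505 and 115 CPM at G90, 591 and 500 CPM at L0, and between 98.3 and 276 CPM in the 6 later glands. PDGFA lay between 5.21 and 50.9 CPM.

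None of these genes was called between adjacent stages. edgeR called 0 of 22695 genes (0%) in each of the 4 comparisons, with 1652, 2912, 817 and 464 genes at an unadjusted p under 0.05 from L0 against G90 to PI7 against PI2. DESeq2 called 392, 1157, 17 and 13 genes in these comparisons, and none of the 6. The lowest edgeR adjusted p of the 6 was 0.703 (PDGFC) for L0 against G90, 0.246 (PDGFRA) for L20 against L0, 0.825 (PDGFA) for PI2 against L20 and 0.998 (PDGFA) for PI7 against PI2. In sums over a gland, fewer cells of a class and less RNA per cell cannot be told apart.

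**Figure D4:**
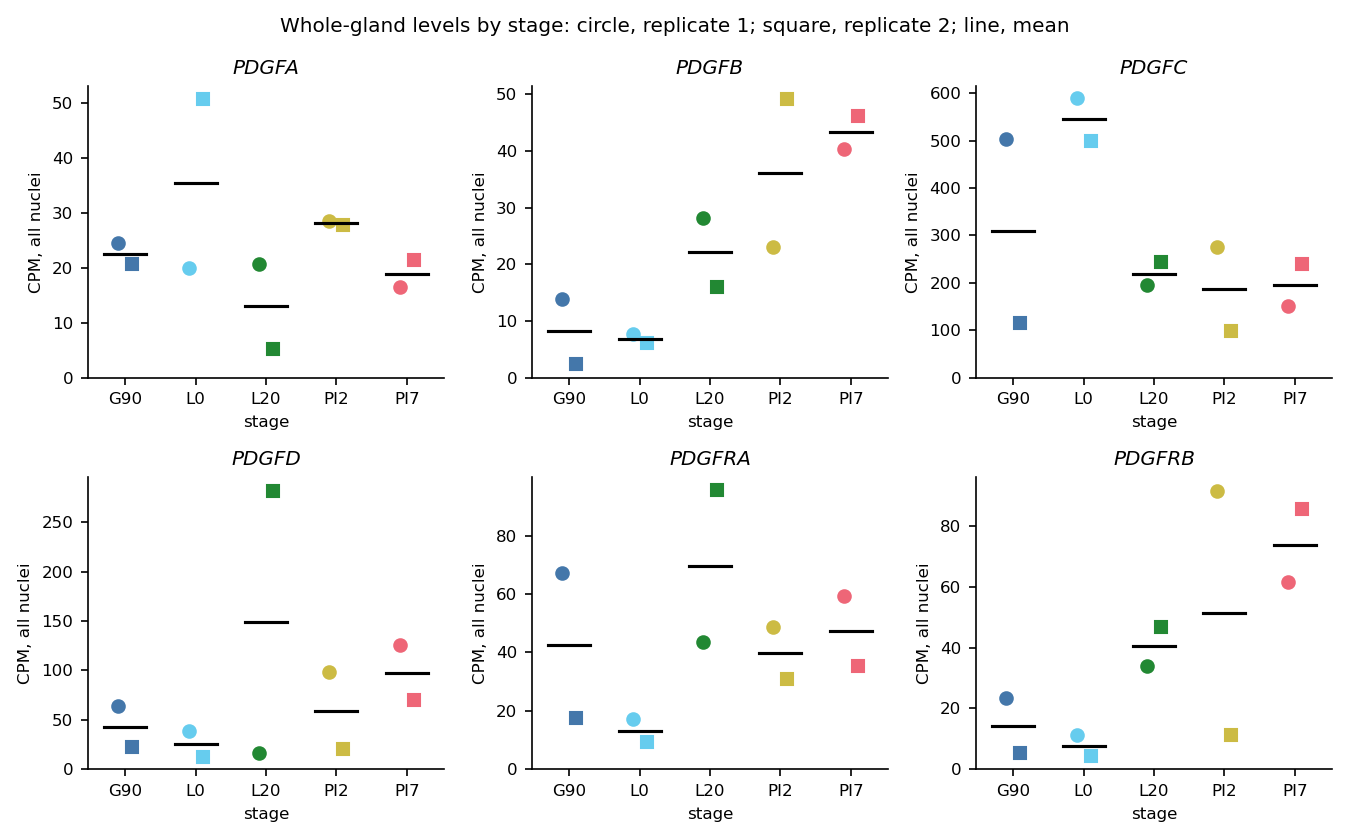
Level of each PDGF gene in CPM over all nuclei of a gland (vertical axis, from 0) at the 5 stages (horizontal axis), with a circle for replicate 1, a square for replicate 2 and a line at their mean. The PDGFB points of G90 and L0 lie between 2.33 and 13.9 CPM, below all later ones at 16.0 to 49.1 CPM. This split was read from the values and not tested. The PDGFD value of the second L20 gland stands alone at 282 CPM.

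The stages were also compared within 6 classes, with a quasi-likelihood F test of any difference between the 5 stages. None of the 6 genes was called in luminal (0.117% of 19708 genes called), fibroblast (0.00749% of 13357), blood endothelial (0.0253% of 11862), macrophage (0% of 8981), mural (0.288% of 2430) or myoepithelial nuclei (0.0233% of 8568). All 6 genes passed the filter on low counts in the first 3 of these classes, 4 in macrophages (not PDGFA and PDGFRA), 2 in mural (PDGFC and PDGFRB) and 5 in myoepithelial nuclei (not PDGFRB). In macrophages 524 genes had an unadjusted edgeR p under 0.05, and 129 genes of the whole table were called by DESeq2, none of them among the 6.

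PDGFB in luminal nuclei came nearest to a stage difference. Its level was 4.91 and 1.16 CPM at G90, 3.64 and 2.61 CPM at L0, 23.1 and 11.3 CPM at L20, 15.8 and 48.8 CPM at PI2, and 22.3 and 30.8 CPM at PI7. Luminal nuclei gave 38.5% of all PDGFB UMIs, so these values are part of the whole-gland ones. The 4 glands of G90 and L0 did not overlap with the 6 later ones, a split read from the values and not itself tested. The edgeR adjusted p was 0.134, and it passed the threshold with DESeq2 (adjusted p = 0.000248), without the filter on low counts (adjusted p = 0.00577) and without the first PI2 gland (adjusted p = 0.0404), where 640 genes were called in place of 23. Stage means of some other low levels, none of them called where tested between stages, were as follows. T or NK PDGFB, which was not tested between stages, had stage means of 8.94 CPM at G90, 0 at L0, 7.55 CPM at L20, 26.9 CPM at PI2 and 27.8 CPM at PI7. Luminal PDGFRB had stage means of 4.06, 3.28, 9.52, 16.0 and 19.9 CPM in the same order (edgeR adjusted p = 0.552). For macrophage PDGFRB the means were 3.91 CPM at G90, 4.67 CPM at L0, 15.8 CPM at L20, 28.7 CPM at PI2 and 37.1 CPM at PI7 (edgeR adjusted p = 0.913). PDGFRB was also higher late in blood endothelial nuclei, with means of 9.87, 6.16, 13.9, 33.8 and 40.3 CPM (edgeR adjusted p = 0.9999). The lymphatic endothelial PDGFRB means were 5.30, 13.5, 16.2, 24.3 and 24.8 CPM. Those of T or NK nuclei were 7.18, 3.08, 5.87, 12.8 and 34.6 CPM, and neither class was tested between stages. Not every low level rose late. Luminal PDGFRA had stage means of 13.3, 8.77, 15.2, 12.2 and 16.6 CPM in the same order (edgeR adjusted p = 0.977). The PI2 sows differed 12.3-fold in luminal and 9.51-fold in macrophage PDGFRB. The part of RNA from other cells in the luminal PDGFB level was not tested.

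Luminal PDGFC was 624 and 109 CPM at G90, 619 and 508 CPM at L0, 211 and 340 CPM at L20, 325 and 97.9 CPM at PI2, and 179 and 260 CPM at PI7 (edgeR adjusted p = 0.419). The G90 sows spanned nearly the whole of this PDGFC range.

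In blood endothelial nuclei the stage difference of PDGFB had an unadjusted p of 0.0332 in edgeR, and an adjusted p of 0.961. Macrophage PDGFB was at 130 and 49.2 CPM at G90, 140 and 156 CPM at L0, 26.9 and 35.0 CPM at L20, 99.6 and 126 CPM at PI2, and 48.3 and 88.4 CPM at PI7 (edgeR adjusted p = 0.743). Both L20 glands were the lowest and both L0 glands the highest, which is not the order seen in luminal nuclei. For the receptors in fibroblast and mural nuclei, whose values are given above, the F test gave an adjusted p of 0.99996 for PDGFRA and PDGFRB in fibroblast nuclei and of 0.9995 for PDGFRB in mural nuclei.

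The other genes of the pathway were taken from a list of 33, of which 32 were measured and 31 tested between classes. The list held proteases that process the ligands, co-receptors and binding proteins, proteins recruited to the active receptor, and proteins that restrain it. Their counts are given beside the share of all genes called in the same comparison. In fibroblast nuclei 6 of 31 were called (19.4% against 10.5% of all genes), all higher, with a median log2 fold change over the list of -0.12 against 0.00 over all genes. They were SPARC (log2 fold change 3.35 ± 0.19 SE), a matrix protein that binds PDGFB, FYN (1.60 ± 0.16 SE), a kinase recruited to the receptors, NRP1 (1.22 ± 0.18 SE), a co-receptor, CBLB (1.003 ± 0.15 SE), a ubiquitin ligase, and PLAU (1.16 ± 0.28 SE) and PLAT (1.03 ± 0.21 SE), which encode the plasminogen activators known to cleave PDGFD and PDGFC respectively. In mural nuclei SPARC, NRP1 and PLAU were higher (log2 fold changes 1.64 ± 0.26, 1.47 ± 0.20 and 1.47 ± 0.44 SE) and PLCG1, a phospholipase that docks on the receptors, was lower (-1.26 ± 0.30 SE), in all 12.9% of the list against 10.6% of all genes. The list's median there was -0.33 against -0.27 over all genes.

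The proteases stood in different classes. PLAT was highest above the rest in blood endothelial nuclei (log2 fold change 4.10 ± 0.18 SE), where 6 of 31 genes were called (19.4% against 10.0%), all higher, with a median log2 fold change of 0.21 against -0.01 over all genes. PLAU was higher in macrophages (3.42 ± 0.27 SE), where 5 genes were higher and 5 lower (32.3% of the list against 19.0% of all genes, median 0.04 against -0.02). ST14, the gene of matriptase, which can cleave PDGFD, was higher in luminal nuclei (1.68 ± 0.15 SE), where 5 were higher and 6 lower (35.5% against 23.3%, median 0.23 against 0.20). FURIN was not called in any class.

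Of the receptors related to the family, KDR and FLT4, vascular endothelial growth factor receptors, were higher in blood endothelial (log2 fold changes 3.52 ± 0.22 and 2.72 ± 0.18 SE) and lymphatic endothelial nuclei (4.37 ± 0.21 and 5.47 ± 0.17 SE). In lymphatic nuclei 4 list genes were higher and 4 lower (25.8% against 14.1%), with a median of -0.17 against -0.07 over all genes. Among the recruited proteins, STAT5A and STAT5B, transcription factors best known here for prolactin signalling, were higher in luminal nuclei (1.81 ± 0.11 and 1.91 ± 0.11 SE), and FYN was higher in T or NK nuclei (2.88 ± 0.16 SE), where 5 genes were higher and 6 lower (35.5% against 15.9%, median 0.16 against -0.02). Of the restraining proteins, the phosphatase gene PTPRJ was higher in macrophages (1.92 ± 0.12 SE) and luminal nuclei (1.16 ± 0.12 SE). Of the 5 restraining genes tested, 3 were called in T or NK nuclei, all higher (60% against 15.9% of all genes). Their median log2 fold change there was 1.04 against -0.02 over all genes. In macrophages 2 of the 5 were called, both higher (40% against 19.0% of all genes). Myoepithelial nuclei had 2 list genes higher and 2 lower (12.9% against 13.6% of all genes), B or plasma nuclei 0 and 5 (16.1% against 12.6%), and adipocyte nuclei 3 and 5 (25.8% against 12.6%). Between mural and fibroblast nuclei 4 were lower in mural and 0 higher (12.9% against 12.6%). The mural, myoepithelial and mural against fibroblast counts were thus near the share over all genes. Between stages 0 list genes were called, of 31 tested in the whole gland and in luminal, fibroblast and blood endothelial nuclei, 29 in myoepithelial and 28 in macrophage nuclei, and 16 in mural nuclei, where none of the proteases could be tested.

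The genes most like each member across the classes were sought among 10492 genes by Pearson's r of the mean log2(CPM + 1) over the 10 classes, which share libraries and depth, so that r is a description only. PDGFRB was most like REM1 (0.991), TBX18 (0.976) and MYOCD (0.975), and PDGFRA most like ITGA11 (0.963), CPXM1 (0.953) and ALX4 (0.941). PDGFA was most like TPM1 (0.926), TACC2 (0.916) and PPP1R12B (0.899), and PDGFB most like PLXNA2 (0.939), PLEKHG5 (0.882) and CFL1 (0.881). For PDGFC they were ARHGEF10L (0.915), CERS6 (0.899) and FAM91A1 (0.843), and for PDGFD C1orf185 (0.894), PLXNA4 (0.886) and TCF4 (0.864).

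The tissue sections gave 4721 spots at G90 and 2248 spots at PI2, with 42815421 and 17906403 UMIs. A spot covers several cells, and with 1 section at a stage there was no test. PDGFRB was at 155 CPM in the G90 and 435 CPM in the PI2 section, a ratio of 2.80 (95% interval 2.71 to 2.89, counting error only). PDGFB was at 29.1 and 47.2 CPM (ratio 1.62, 1.48 to 1.77). The other 4 genes were lower in the PI2 section, at 25.5 against 40.3 CPM for PDGFA, 25.6 against 53.1 CPM for PDGFC, 18.5 against 23.1 CPM for PDGFD and 26.4 against 34.0 CPM for PDGFRA.

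Spots were ranked by the share of their UMIs from the markers of a class, and the top 10% was set beside all other spots of the section. PDGFRA was higher in the spots richest in fibroblast markers, 1.70-fold at G90 (95% interval 1.34 to 2.14) and 4.15-fold at PI2 (3.05 to 5.54), or 2.72-fold at PI2 with the top 20% of spots. PDGFD was higher in the same spots, 2.26-fold (1.75 to 2.88) and 3.46-fold (2.31 to 5.01). PDGFB was lower there, 0.658-fold (0.432 to 0.962) and 0.525-fold (0.278 to 0.902), from only 27 and 13 UMIs in these spots. These 3 directions in fibroblast spots were the same in both sections and in the nuclei, which did not hold for every class and gene, and the labels do not say whether the sections came from sows also used for nuclei. Neither PDGFRA nor PDGFD was higher in these spots alone. At G90 the PDGFRA ratio was 1.41 (1.19 to 1.65) in T or NK and 1.35 (1.006 to 1.78) in adipocyte spots. At PI2 it was 1.46 (1.005 to 2.06) in mural and 1.35 (1.01 to 1.79) in macrophage spots. The PDGFD ratio at G90 and PI2 was 1.39 and 1.68 in mural and 1.38 and 1.85 in lymphatic spots. In macrophage spots it was 1.29 (1.01 to 1.63) at G90. At PI2 it was also 2.20 in adipocyte and 1.97 in blood endothelial spots. Both genes were lower at PI2 in luminal spots (0.487 and 0.566).

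PDGFRB was higher in spots rich in mural markers, 1.44-fold at G90 (1.32 to 1.56) and 1.16-fold at PI2 (1.05 to 1.27), but not in these alone. At G90 its ratio was 1.30 (1.19 to 1.43) in blood endothelial and 1.28 (1.19 to 1.39) in T or NK spots, and at PI2 it was 1.21 (1.13 to 1.29) in B or plasma spots, all of them classes low in PDGFRB in the nuclei. In the spots rich in fibroblast markers the PDGFRB ratio was 1.03 (0.894 to 1.17) at G90 and 1.14 (1.004 to 1.29) at PI2. At PI2, PDGFRB was lower in the spots richest in luminal markers (0.429-fold, 0.386 to 0.476) and myoepithelial markers (0.465-fold, 0.419 to 0.514) and higher in those rich in macrophage markers (1.36-fold, 1.26 to 1.45). In blood endothelial spots PDGFB was at 1.10-fold (0.865 to 1.38) and 1.05-fold (0.781 to 1.39), so no enrichment was detectable at this depth, with 80 and 53 UMIs in the top spots. In macrophage spots PDGFB was at 0.981-fold (0.769 to 1.24) at G90 and 1.26-fold (1.01 to 1.57) at PI2. In myoepithelial spots PDGFB was at 0.869-fold (0.697 to 1.07) and 0.828-fold (0.643 to 1.05), without the increase called in the nuclei. PDGFC was likewise not higher in the spots of the 2 classes with a called increase in nuclei. Its ratio was 0.862 (0.733 to 1.01) at G90 and 0.690 (0.471 to 0.979) at PI2 in myoepithelial spots, and 0.883 (0.732 to 1.06) and 0.789 (0.540 to 1.12) in macrophage spots. In T or NK spots the PDGFC ratio was 1.19 (1.04 to 1.37) at G90 and 1.20 (0.859 to 1.63) at PI2, without the decrease called in the nuclei. PDGFA was higher in the mural spots of the G90 section (1.37-fold, 1.15 to 1.61), and at PI2 its ratio was 0.927 (0.575 to 1.42). In myoepithelial spots the PDGFA ratio was 0.897 (0.746 to 1.07) at G90 and 1.13 (0.835 to 1.51) at PI2, without a clear increase. At G90 it was 1.29 (1.07 to 1.55) in blood endothelial spots, a class without a PDGFA call in the nuclei.

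**Figure D5:**
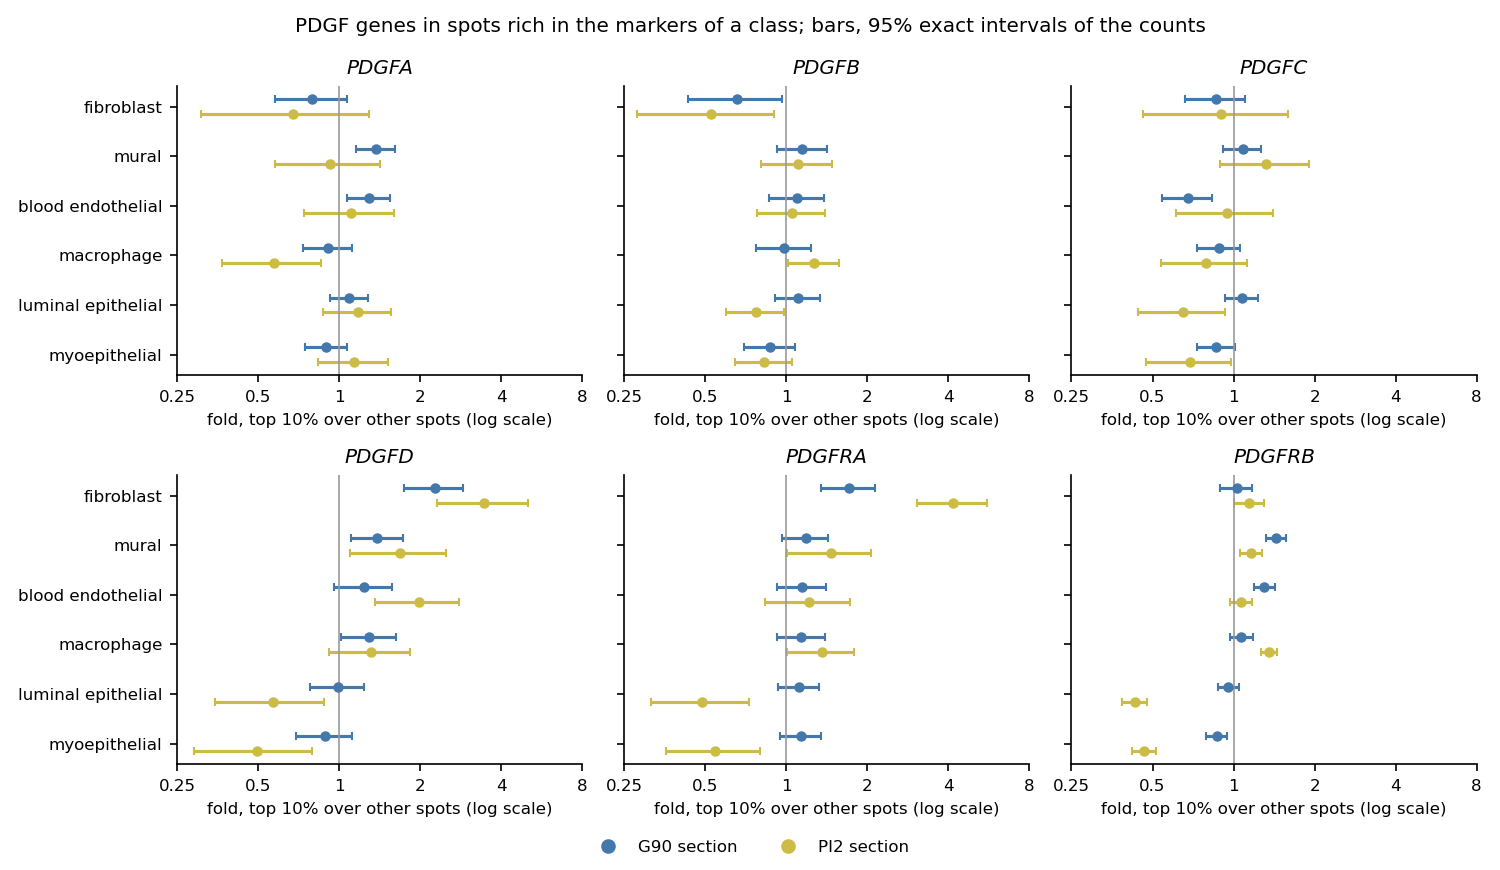
Ratio of the level of each PDGF gene in the 10% of spots richest in the markers of a class (rows) to its level in all other spots of the same section, on a log axis, for the G90 (blue) and PI2 (yellow) sections, with 95% exact intervals of the counts as bars and a grey line at 1. PDGFRA and PDGFD lie right of the line in the fibroblast rows of both sections, from 1.70 to 4.15, and PDGFRB lies furthest left in the luminal row at PI2, at 0.429.

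Milk held 17571 cells at L0 and 14514 at L20, most of them in the neutrophil class (20518), with 3873 luminal, 1491 macrophage, 1461 T or NK and 66 B or plasma cells. With 1 milk sample at a stage, stage and sample cannot be told apart, and intervals cover counting error only. Both receptors were low in milk, which held 7 fibroblast and 7 mural cells by the same gate. PDGFRA was at 1.98 CPM over all cells at L0 and 0.419 CPM at L20, and its L0 level was 2.01 CPM in luminal cells and 1.64 CPM in neutrophils, a class that should lack it. PDGFRB was at 0.247 and 0.442 CPM, with 0 UMIs in the luminal cells of L20, which allows up to 0.406 CPM.

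The ligands were found in named milk classes. Luminal cells had 11.3 CPM of PDGFA at L0 (95% interval 10.4 to 12.2) and 13.0 CPM at L20 (10.8 to 15.6), against 0.510 and 0.214 CPM in neutrophils. Their PDGFC was 11.3 CPM at L0 (10.4 to 12.2) and 1.98 CPM at L20 (1.17 to 3.13), and the neutrophil level of PDGFC was 8.10 and 6.48 CPM. Macrophages had 15.3 CPM of PDGFC at L0 (11.3 to 20.2) and 18.0 CPM at L20 (15.5 to 20.7).

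Macrophage PDGFB was 15.9 CPM at L0 (11.8 to 21.0) and 1.94 CPM at L20 (1.20 to 2.97), so the L0 sample was higher. Both L0 glands were also above both L20 glands in macrophage nuclei, where no stage difference was called. PDGFB was at 0.0553 and 0.771 CPM in milk luminal cells. PDGFD was at 21.2 CPM in T or NK cells at L0 (11.3 to 36.3) from 13 UMIs and at 2.34 CPM at L20 (0.759 to 5.46) from 5. The order was the other way in T or NK nuclei of the gland, with PDGFD stage means of 28.6 CPM at L0 and 143 CPM at L20, not tested. In milk B or plasma cells PDGFD was at 37.0 CPM at L0 (16.0 to 72.9) from 8 UMIs and at 12.4 CPM at L20 (2.56 to 36.3) from 3. The neutrophil level of PDGFD was 3.17 CPM at L0 and 0.855 CPM at L20, which lies within the T or NK interval of L20.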

How the data were processed

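Single-nucleus, milk single-cell and spatial libraries were aligned to Sscrofa11.1 and counted by the authors, who deposited raw UMI counts per gene and barcode. For the sections the submitters' processing notes name Space Ranger, whose version differs between the notes and the file headers, and Seurat 4.3.0. Barcodes with fewer than 300 detected genes or over 25% of UMIs from mitochondrial genes were dropped, after the study's methods, and all deposited spots were used. No doublet caller was run. Nuclei with tied classes were left out (6.18%, with another 14.0% under 2 markers), and 21.5% of the nuclei were led by 1 marker only. Counts were summed per sow and class (at least 10 nuclei) and fitted with edgeR 4.0.16 (TMM, filterByExpr, quasi-likelihood), with DESeq2 1.42.0 as an alternative. Class fits had the sow as a block. The labels give no batch. Intervals are exact at 95%. The scripts were tested on simulated data. At the spread of these glands the whole-gland stage fit did not recover the changes put in, so its lack of calls cannot show that stages are alike. Promoters were read from RefSeq, where 5 of the 6 symbols matched. The 6 genes are all named, besides the pathway list and the 3 most alike genes each. The members and all lists were chosen with earlier results of these data known.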

Additional observations from a re-analysis of the deposited data

How the results depend on the processing

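Of 66 log2 fold changes of the PDGF genes between classes, 33 were called, and 24 of these kept their direction and call in all 17 alternatives. Of the 33 not called, 24 stayed without a call, and 9 were called in 1 to 10 alternatives, most often PDGFC in mural nuclei (10) and PDGFRA in macrophages (4). No called change turned its sign, and 8 of those not called did so in 1 or 2 alternatives, among them PDGFRB in mural against fibroblast nuclei, to -0.16 when nuclei with at least 2 markers of a second class were left out. The number of the 6 genes called changed by over 1.5 times in these cases. It changed from 1 to 2 in B or plasma nuclei (with a minimum of 500 genes and up to 5% of UMIs from mitochondrial genes). It changed from 1 to 3 in adipocyte nuclei (at least 3 markers) or 0 (no second class). In lymphatic nuclei it changed from 2 to 1 without the sow block, and with no second class, where PDGFD and PDGFRB were lost and PDGFA gained. Between stages in luminal nuclei it changed from 0 to 1 (DESeq2, and no filter on low counts). Smaller changes were macrophage 4 to 5 (DESeq2, 3 markers), T or NK 2 to 3 (3 markers), luminal 3 to 4 (no second class) and myoepithelial 5 to 4 (4 settings). Others were mural against fibroblast 5 to 4 (no second class), and mural 3 to 4 (500 genes) or 2 (no filter, no sow block, no second class). At an equal count, mural nuclei exchanged PDGFRA for PDGFC with DESeq2, 25 nuclei or 3 markers. Luminal nuclei exchanged PDGFB for PDGFC without the sow block, and lymphatic nuclei PDGFRB for PDGFC with 3 markers. Leaving out 1 gland gave 1 to 2 in B or plasma, 1 to 3 in T or NK, 0 to 2 in adipocyte and 0 to 3 in lymphatic nuclei, 4 to 5 in fibroblast, macrophage and myoepithelial nuclei and in mural against fibroblast nuclei, 2 to 3 in luminal and 2 to 4 in mural nuclei, and 0 to 1 for luminal stages. Without the second L20 gland, adipocyte nuclei lost PDGFB, mural nuclei lost PDGFRA and macrophages gained PDGFRA. With the top 20% of spots in place of 10%, the PI2 ratios were 2.72 for PDGFRA in fibroblast, 1.28 for PDGFRB in mural and 0.639 for PDGFRB in luminal spots, and the G90 ratio of PDGFC in blood endothelial spots was 0.843.

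Counts over all genes depended more on the setting. Between stages DESeq2 called 2154 genes in luminal (edgeR 23), 148 in fibroblast (1), 90 in blood endothelial (3), 129 in macrophage (0), 26 in mural (7) and 70 in myoepithelial nuclei (2). Leaving out 1 gland gave 0 to 640, 0 to 58, 1 to 29, 0 to 37, 5 to 48 and 0 to 56 genes in these classes, and without the second L20 gland 42 in luminal, 31 in fibroblast, 36 in macrophage, 24 in mural and 56 in myoepithelial nuclei. That gland also moved the adipocyte count from 1488 to 981. Leaving out the filter gave 1174, 416, 319, 323, 43 and 265, and over the whole gland 33, 269 and 3 genes in the first 3 comparisons. A fit of L0 and G90 alone called 407. The mural count between stages, 7 in the main fit, rose most with at least 3 markers and with at least 25 nuclei, which leaves out the smallest mural sums. In class comparisons, no filter gave 4523 luminal (2756), 3853 T or NK (1884), 2316 B or plasma (1489) and 2250 fibroblast genes (1238), and no second class gave 983 B or plasma, 546 adipocyte (1488) and 953 lymphatic genes (1669). Adipocyte genes were 966 without the sow block. Replicate numbers did not pair the samples (correlations of deviations between stages from -0.496 to 0.363), and with a replicate block 0 of the 6 genes were called between stages, in the whole gland or in a class, and 4 genes in luminal nuclei. DESeq2 moved the median of all genes by -0.40 in luminal nuclei, 0.28 in B or plasma and in mural against fibroblast nuclei, 0.26 in mural and 0.12 in adipocyte nuclei. The causes were not tested. Mural, B or plasma and adipocyte nuclei were the fewest, and the stage tests had 2 sows each.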
